A study of Mus musculus with 9 samples.

Results

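Mitosis genes encode the cyclins, kinases, kinetochore proteins, spindle motors and cytokinesis factors that carry a cell through division. To describe them in IL-33-induced airway inflammation, 40 such genes, listed by symbol, were followed among the 34638 genes of a lung RNA-seq table. The list took in the division machinery from mitotic entry to abscission together with *Mki67*, *Top2a*, *Foxm1* and *Hmgb2*, and each of the 40 symbols was found in the table. Lung RNA came from 9 wild-type (WT) C57BL/6 mice in 3 groups of 3. PBS mice received phosphate-buffered saline as the challenge. IL-33 mice received 0.5 µg of recombinant mouse IL-33, an epithelial alarmin, into the trachea in 4 challenges on days 0 to 3. IL-33+LM8 mice received the same IL-33 and, before challenge, intraperitoneal LM8 at 10 mg/kg, an inhibitor of MyD88, the adaptor through which the IL-33 receptor signals. The study's methods describe the PBS and IL-33 mice as females of 6 to 8 weeks whose samples were collected on day 4. For the IL-33+LM8 mice, sex, age and day of collection were not given in the sources used here. No group received LM8 without IL-33.

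During mitosis, cyclin-bound Cdk1 drives chromosome condensation and spindle assembly, and kinetochores attach the chromosomes to microtubules. The spindle checkpoint holds back the anaphase-promoting complex, a ubiquitin ligase, until attachment is complete, after which securin and cyclin B are destroyed and the cell divides. Most mitotic transcripts are made in late S and G2 phase and are scarce in resting cells. The healthy adult lung turns over slowly, and in type 2 inflammation its dividing cells can include lymphocytes, myeloid cells, epithelium and endothelium.

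Sequencing depth differed between mice without separating the groups. Total counts on genes were 62238131, 61767006 and 73869252 in PBS mice 1, 2 and 3, 66029783, 59830237 and 53877663 in IL-33 mice and 59753648, 62104126 and 90607218 in IL-33+LM8 mice. A member was counted between 77 times (*Ttk*, in a PBS mouse) and 22438 times (*Mki67*, in an IL-33 mouse) in a library. Levels are given below as FPKM, the authors' count scaled to gene length and library size. All 40 members passed the filter of a mean of at least 0.5 FPKM over the 9 mice. Of these, 5 (*Ttk*, *Cenpf*, *Ndc80*, *Cenpe* and *Kif2c*) averaged under 0.5 FPKM in PBS mice. They reached the filter through the other groups. With no filter on FPKM, 40 members were likewise called in IL-33 against PBS mice. The lung label was checked against epithelial markers. *Sftpc*, the surfactant protein gene of alveolar type 2 cells, averaged 11030, 4993 and 9203 FPKM in PBS, IL-33 and IL-33+LM8 mice. *Scgb1a1*, the club cell secretoglobin gene, averaged 21500, 8806 and 17150 FPKM. Both marked lung tissue in every group.

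One library of each group stood apart from the others in the same way. Over the genes expressed, the deviations of PBS mouse 3, IL-33 mouse 1 and IL-33+LM8 mouse 3 from their group means correlated at 0.732 (PBS 3 with IL-33 1), 0.732 (PBS 3 with IL-33+LM8 3) and 0.759 (IL-33 1 with IL-33+LM8 3). No other pair of mice from different groups exceeded 0.428. These correlations are across genes, which are not independent replicates. The 3 libraries also had the largest total count of their groups. Their part in the results was not tested beyond leaving them aside, which was chosen after the data were seen. Without them, 40, 34 and 32 members were called in IL-33 against PBS, IL-33+LM8 against IL-33 and IL-33+LM8 against PBS mice, compared with 40, 36 and 32 with all mice. Median log2 fold changes of the members were then 2.80, -1.20 and 1.57, compared with 2.86, -1.23 and 1.64.

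To ask how IL-33 altered the mitosis genes, IL-33 mice were compared with PBS mice. All 40 genes rose. Called means an adjusted p under 0.05 and at least a 2-fold difference by edgeR (quasi-likelihood fit). All 40 members were called higher, against 10.8% of the 16831 genes tested (1815 genes). In all 40 each IL-33 mouse had a higher FPKM than each PBS mouse, against 31.7% of the genes tested. Their median log2 fold change was 2.86, where that of all genes tested was -0.01. *Hmmr*, which encodes a microtubule-binding spindle protein, had the largest log2 fold change at 3.42, and *Spc25*, of the Ndc80 complex, the smallest at 1.59. As a ratio of mean FPKM the rise ran from 3.03-fold to 10.8-fold with a median of 7.31, and 38 members exceeded 4-fold. Adjusted p values ran from 1.55e-06 to 0.000144 by edgeR (quasi-likelihood fit). An exact permutation test of 3 mice against 3 cannot give a two-sided p under 0.1. In bulk lung, a larger number of dividing cells and more RNA per dividing cell cannot be told apart.

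**Figure D1:**
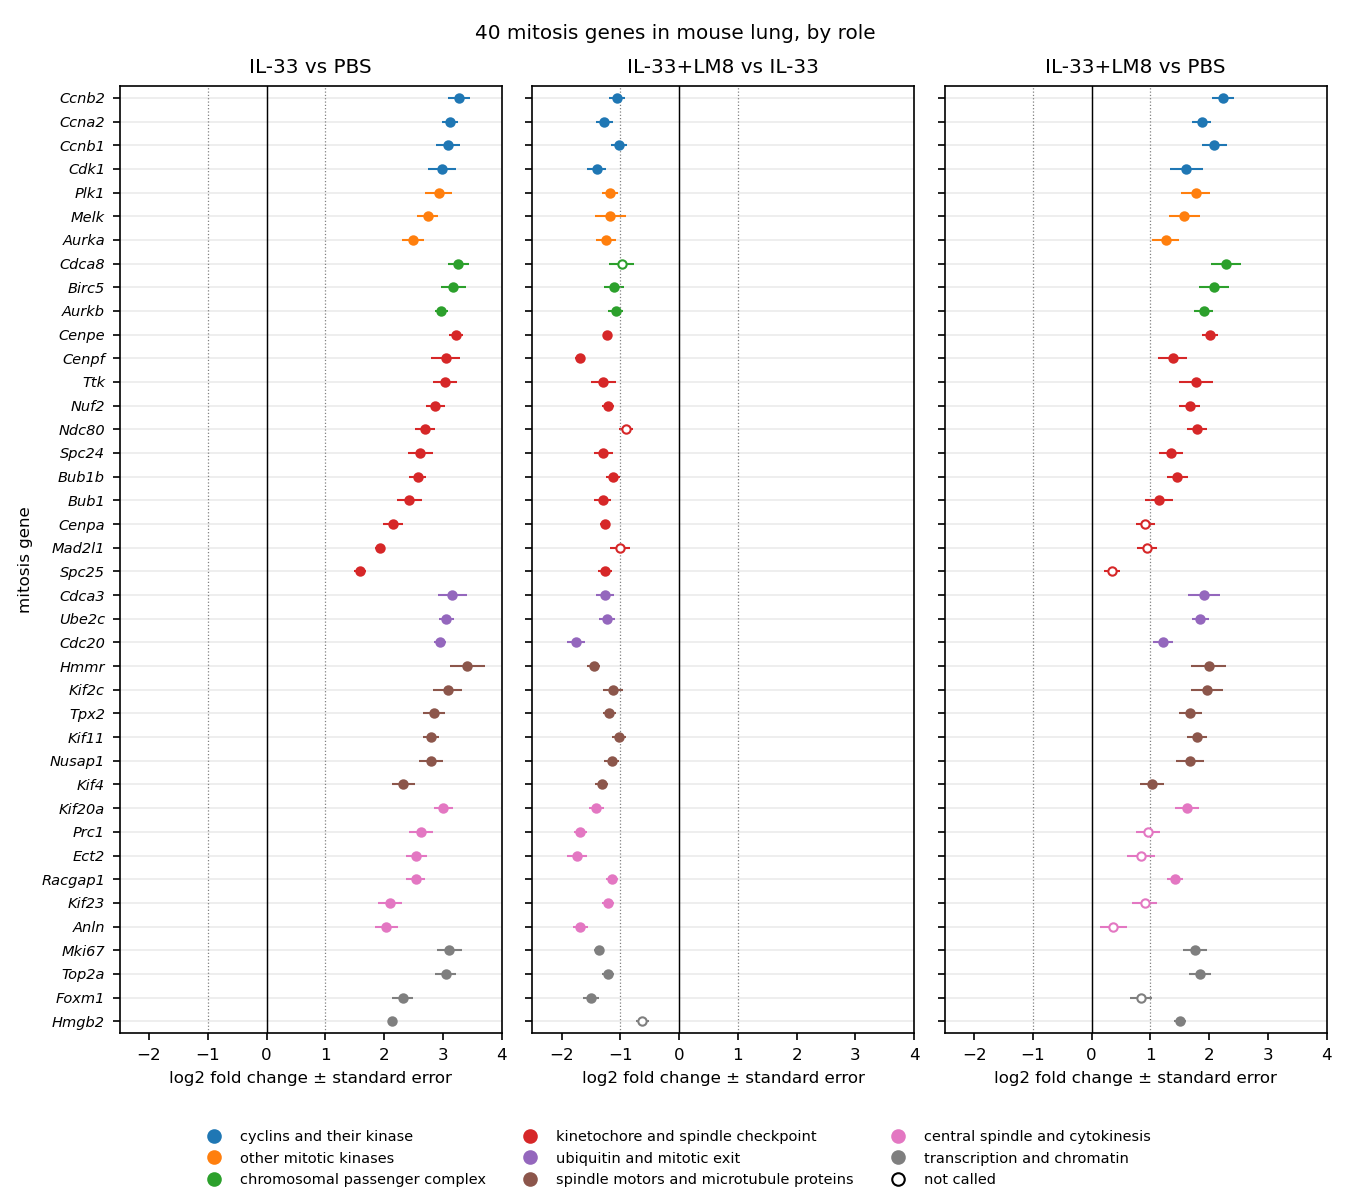
Log2 fold change with its standard error (x axis) of each of the 40 mitosis genes (y axis), grouped by role in colour, in the 3 comparisons of 3 mice each. Filled points were called at an adjusted p under 0.05 and at least 2-fold (dotted lines), open points were not; all 40 genes lie right of 0 in IL-33 vs PBS and left of 0 in IL-33+LM8 vs IL-33, where 36 were called.

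To ask whether the MyD88 inhibitor altered these levels, IL-33+LM8 mice were compared with IL-33 mice. Mitosis genes were lower with LM8, and 36 of the 40 fell by the call rule, against 3.93% of the 16831 genes tested (662 genes). All 40 had non-overlapping groups with the IL-33+LM8 mice below, against 22.0% of the genes tested. Each of the 40 had an adjusted p under 0.05, the largest being 0.0147 for *Melk* by edgeR (quasi-likelihood fit). The median log2 fold change was -1.23, where that of all genes tested was -0.01. Mean FPKM in IL-33+LM8 mice was between 0.295 and 0.646 times that in IL-33 mice, with a median of 0.426. The largest log2 differences were those of *Cdc20* (-1.76), *Ect2* (-1.73) and *Cenpf* (-1.69). *Cdc20* activates the anaphase-promoting complex, *Ect2* encodes the RhoA exchange factor of cytokinesis and *Cenpf* a kinetochore protein. The smallest among called genes were those of *Kif11* (-1.02), *Ccnb1* (-1.02) and *Ccnb2* (-1.06). The other 4 members missed the 2-fold minimum, with log2 fold changes of *Hmgb2* (-0.63), *Ndc80* (-0.90), *Cdca8* (-0.98) and *Mad2l1* (-0.998). Leaving out 1 mouse at a time ended the call of 7 members (*Ccnb1*, *Ccnb2*, *Melk*, *Kif11*, *Kif2c*, *Aurkb* and *Birc5*) in at least 1 case, with log2 fold changes that stayed between -0.90 (*Kif11*) and -1.13 (*Melk*), and limma called 22 members on log2(FPKM + 1) and 36 on log2(FPKM + 0.1). *Melk* lost its call on adjusted p without IL-33 mouse 1 (-1.03) and without IL-33 mouse 3 (-1.13), and on the 2-fold minimum without IL-33+LM8 mouse 1 (-0.95). Calls were gained by *Ndc80* (-1.01), *Cdca8* (-1.07) and *Mad2l1* (-1.06) without IL-33 mouse 2. Without IL-33+LM8 mouse 2, *Cdca8* (-1.26) and *Mad2l1* (-1.18) gained one.

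To ask what remained of the response under the inhibitor, IL-33+LM8 mice were compared with PBS mice. Most mitosis genes stayed above their PBS level. By the call rule 32 of the 40 rose, against 5.87% of the 16829 genes tested (988 genes). In 39 the groups did not overlap, with IL-33+LM8 mice above, against 23.4% of the genes tested. The median log2 fold change was 1.64, where that of all genes tested was 0.00. As a ratio of mean FPKM the members ran from 1.26-fold to 4.90-fold with a median of 3.11. The largest log2 fold changes were those of *Cdca8* (2.29), *Ccnb2* (2.24) and *Ccnb1* (2.09), and the smallest among called genes those of *Kif4* (1.03), *Bub1* (1.15) and *Cdc20* (1.21). The 8 members that were not called had log2 fold changes of *Spc25* (0.35), *Anln* (0.37), *Ect2* (0.84), *Foxm1* (0.84), *Kif23* (0.90), *Cenpa* (0.91), *Mad2l1* (0.95) and *Prc1* (0.96). Adjusted p was 0.11 for *Spc25* and 0.264 for *Anln*, the largest among the members, by edgeR (quasi-likelihood fit). The other 38 members had an adjusted p under 0.05. *Anln* was also the member whose groups overlapped. Without 1 mouse at a time, *Kif4* lost its call in 3 cases and *Bub1* in 1. Calls were gained by *Cenpa* without PBS mouse 3 (1.03) and by *Mad2l1* without IL-33+LM8 mouse 1 (1.11). *Prc1* gained one without IL-33+LM8 mouse 3 (1.03), and gains without PBS mouse 1 are given below with the cytokinesis genes. Limma called 19 members on log2(FPKM + 1) and 31 on log2(FPKM + 0.1).

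The 3 comparisons share mice, so their values are given side by side and not as independent evidence. In all 40 members the mean FPKM of the IL-33+LM8 mice lay between a lower PBS and a higher IL-33 mean, against 31.3% of the 16831 genes tested. In 39 the 3 groups did not overlap, with PBS mice lowest and IL-33 mice highest, against 10.7% of the genes tested. To express the intermediate level, the difference between IL-33+LM8 and PBS means was taken as a percentage of the difference between IL-33 and PBS means, a measure chosen after the values were seen. It ran from 9.09 ± 10.5% for *Anln* to 54.1 ± 12.0% for *Hmgb2* (propagated SD, n = 3 per group), with a median of 33.9%. With each mouse left out in turn it was 4.76 to 13.1% for *Anln*, 48.7 to 59.0% for *Hmgb2* and 30.1 to 37.4% for the median. By role, the median was lowest for central spindle and cytokinesis genes at 22.0% and highest for the chromosomal passenger complex at 39.6%. Whether roles differed was not tested.

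The cyclins and their kinase set the entry into mitosis. All 4 rose with IL-33, all 4 were lower with LM8 and all 4 remained higher than in PBS mice, with median log2 fold changes of 3.11, -1.17 and 1.98. Their summed level was 6.07 ± 0.972 FPKM in PBS, 54.5 ± 6.18 FPKM in IL-33 and 24.2 ± 3.46 FPKM in IL-33+LM8 mice (SD, n = 3 each). *Ccnb2* (ENSMUSG00000032218, chromosome 9) was at 2.39, 1.62 and 2.29 FPKM in PBS mice 1, 2 and 3, at 19.8, 17.7 and 24.0 FPKM in IL-33 mice and at 9.28, 11.3 and 8.91 FPKM in IL-33+LM8 mice. This B-type cyclin had the highest mean of the role in IL-33 and IL-33+LM8 mice, *Ccna2* in PBS mice. Values did not overlap between groups, and IL-33 mouse 3 was the highest of all. For *Ccnb2* the log2 fold change was 3.28 ± 0.19 (standard error) in IL-33 against PBS mice, -1.06 ± 0.14 between IL-33+LM8 and IL-33 mice and 2.24 ± 0.19 between IL-33+LM8 and PBS mice, with adjusted p of 1.24e-05, 0.00185 and 0.000302 by edgeR (quasi-likelihood fit). Mean FPKM in IL-33 mice was 9.77 ± 2.48 times that in PBS mice (propagated SD, n = 3 per group). The 3 log2 fold changes, in the same order of comparisons, were 3.12, -1.27 and 1.87 for *Ccna2*, the cyclin of S phase and mitotic entry. They were 3.09, -1.02 and 2.09 for *Ccnb1*, the main mitotic partner of the kinase, and 2.99, -1.40 and 1.61 for *Cdk1* itself. Both B-type cyclins have pseudogene copies in the table, and how the authors' counting split reads between near-identical copies is not stated, so their counts are uncertain to that extent. *Ccnb1-ps* was counted between 10 and 31 times per mouse and *Ccnb2-ps* between 98 and 263 times. The cyclins themselves were counted at least 1813 (*Ccnb1*) and 1695 times (*Ccnb2*) in each IL-33 mouse and at least 225 and 160 times in each PBS mouse.

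The other mitotic kinases, *Plk1*, *Aurka* and *Melk*, were called in all 3 comparisons, with medians of 2.74, -1.18 and 1.58. Summed, they stood at 3.95 ± 0.821 FPKM in PBS, 26.8 ± 3.03 FPKM in IL-33 and 11.7 ± 2.31 FPKM in IL-33+LM8 mice (SD, n = 3 each). *Plk1* (ENSMUSG00000030867, chromosome 7) was at 2.27, 1.24 and 1.86 FPKM in PBS mice 1, 2 and 3, at 13.1, 12.6 and 15.5 FPKM in IL-33 mice and at 5.33, 7.18 and 5.63 FPKM in IL-33+LM8 mice. Polo-like kinase 1 acts from centrosome maturation to cytokinesis. PBS mouse 2 was the lowest and IL-33 mouse 3 the highest, and no groups overlapped. For *Plk1* the log2 fold change was 2.93 ± 0.23 (standard error) in IL-33 against PBS mice, -1.18 ± 0.14 between IL-33+LM8 and IL-33 mice and 1.77 ± 0.25 between IL-33+LM8 and PBS mice, with adjusted p of 4.28e-05, 0.00112 and 0.00219 by edgeR (quasi-likelihood fit). *Aurka*, the centrosomal Aurora kinase that acts in spindle assembly, had log2 fold changes of 2.49, -1.25 and 1.26. *Melk*, a kinase gene expressed in proliferating cells, had 2.74, -1.17 and 1.58, and its standard error of 0.26 between IL-33+LM8 and IL-33 mice was the largest among the members there. The IL-33 mice spread from 4.21 to 6.55 FPKM for this gene.

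The chromosomal passenger complex corrects faulty attachments and later acts in cytokinesis. *Aurkb* is its kinase, while *Birc5* (survivin) and *Cdca8* (borealin) place it on chromosomes. All 3 genes rose with IL-33, 2 of the 3 fell with LM8 by the call rule, and all 3 were higher in IL-33+LM8 than in PBS mice. Medians were 3.18, -1.08 and 2.08, and the summed level was 2.85 ± 0.345 FPKM in PBS, 24.7 ± 2.02 FPKM in IL-33 and 11.8 ± 2.48 FPKM in IL-33+LM8 mice (SD, n = 3 each). *Aurkb* (ENSMUSG00000020897, chromosome 11) was at 1.29, 1.25 and 1.52 FPKM in PBS mice 1, 2 and 3, at 10.6, 10.2 and 11.4 FPKM in IL-33 mice and at 4.51, 6.01 and 4.71 FPKM in IL-33+LM8 mice. The kinase gene was the most abundant of these 3 genes in each group. For *Aurkb* the log2 fold change was 2.97 ± 0.11 (standard error) in IL-33 against PBS mice, -1.08 ± 0.13 between IL-33+LM8 and IL-33 mice and 1.91 ± 0.16 between IL-33+LM8 and PBS mice, with adjusted p of 2.04e-06, 0.000966 and 0.000268 by edgeR (quasi-likelihood fit). Groups were apart in every mouse. *Cdca8* (ENSMUSG00000028873, chromosome 4) was at 0.635, 0.426 and 0.569 FPKM in PBS mice 1, 2 and 3, at 5.51, 4.60 and 5.67 FPKM in IL-33 mice and at 2.25, 3.60 and 2.14 FPKM in IL-33+LM8 mice. IL-33+LM8 mouse 2 exceeded the other 2 mice of its group for borealin. For *Cdca8* the log2 fold change was 3.26 ± 0.18 (standard error) in IL-33 against PBS mice, -0.98 ± 0.21 between IL-33+LM8 and IL-33 mice and 2.29 ± 0.26 between IL-33+LM8 and PBS mice, with adjusted p of 9.53e-06, 0.0124 and 0.000981 by edgeR (quasi-likelihood fit). Its difference between IL-33+LM8 and IL-33 mice did not reach 2-fold, and without IL-33+LM8 mouse 2 it did, at -1.26. *Birc5* had log2 fold changes of 3.18, -1.11 and 2.08.

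Kinetochore and spindle checkpoint genes were the largest role, with 11 members. All 11 rose with IL-33, 9 fell with LM8 and 8 remained higher in IL-33+LM8 than in PBS mice. Median log2 fold changes were 2.62, -1.26 and 1.38. The summed level was 11.0 ± 1.03 FPKM in PBS, 60.2 ± 4.62 FPKM in IL-33 and 25.9 ± 2.88 FPKM in IL-33+LM8 mice (SD, n = 3 each). *Bub1b* (ENSMUSG00000040084, chromosome 2) was at 2.36, 1.61 and 2.14 FPKM in PBS mice 1, 2 and 3, at 12.2, 11.8 and 12.5 FPKM in IL-33 mice and at 4.92, 6.60 and 5.14 FPKM in IL-33+LM8 mice. BubR1, its product, is part of the checkpoint complex that inhibits *Cdc20*. The 3 IL-33 mice lay close together. For *Bub1b* the log2 fold change was 2.57 ± 0.14 (standard error) in IL-33 against PBS mice, -1.13 ± 0.12 between IL-33+LM8 and IL-33 mice and 1.46 ± 0.18 between IL-33+LM8 and PBS mice, with adjusted p of 9.64e-06, 0.000623 and 0.00146 by edgeR (quasi-likelihood fit). *Cenpe* (ENSMUSG00000045328, chromosome 3) was at 0.512, 0.395 and 0.499 FPKM in PBS mice 1, 2 and 3, at 4.55, 4.25 and 4.51 FPKM in IL-33 mice and at 1.79, 1.90 and 1.97 FPKM in IL-33+LM8 mice. This kinesin carries chromosomes to the spindle equator. It had the largest rise of the role, 9.46 ± 1.34 times in mean FPKM, and its groups were well separated. For *Cenpe* the log2 fold change was 3.23 ± 0.12 (standard error) in IL-33 against PBS mice, -1.23 ± 0.07 between IL-33+LM8 and IL-33 mice and 2.01 ± 0.14 between IL-33+LM8 and PBS mice, with adjusted p of 2.05e-06, 8.11e-05 and 0.000131 by edgeR (quasi-likelihood fit). The Ndc80 complex, which binds microtubule ends, had 4 members in the list. With IL-33 the log2 fold changes were 2.87 for *Nuf2*, 2.69 for *Ndc80*, 2.62 for *Spc24* and 1.59 for *Spc25*. Between IL-33+LM8 and IL-33 mice they were -1.21, -0.90, -1.29 and -1.26 in the same order. *Spc25* mRNA was at 1.38, 1.38 and 1.38 FPKM in PBS, 4.39, 3.85 and 4.29 FPKM in IL-33 and 1.59, 1.86 and 1.77 FPKM in IL-33+LM8 mice, and 12.9 ± 5.12% of its rise remained with LM8. Among checkpoint genes, the kinase genes *Ttk* and *Bub1* had log2 fold changes of 3.04 and 2.43 with IL-33, and *Mad2l1*, which encodes the Mad2 inhibitor of *Cdc20*, had 1.93. Against IL-33 mice, IL-33+LM8 mice differed by -1.29, -1.30 and -0.998 in these genes. *Cenpa*, the centromeric histone H3 variant, and *Cenpf* rose by 2.15 and 3.05 with IL-33 and fell by 1.26 and 1.69 with LM8 on the log2 scale.

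Genes of ubiquitin transfer and mitotic exit, 3 in number, were called in each comparison, with medians of 3.06, -1.26 and 1.85. Their summed level was 6.95 ± 0.797 FPKM in PBS, 56.8 ± 5.69 FPKM in IL-33 and 20.5 ± 3.33 FPKM in IL-33+LM8 mice (SD, n = 3 each). *Cdc20* (ENSMUSG00000006398, chromosome 4) was at 3.83, 3.26 and 3.63 FPKM in PBS mice 1, 2 and 3, at 28.4, 25.3 and 29.7 FPKM in IL-33 mice and at 6.61, 9.73 and 8.24 FPKM in IL-33+LM8 mice. PBS mice differed little, and IL-33+LM8 mouse 2 was the highest of its group. For *Cdc20* the log2 fold change was 2.95 ± 0.10 (standard error) in IL-33 against PBS mice, -1.76 ± 0.15 between IL-33+LM8 and IL-33 mice and 1.21 ± 0.17 between IL-33+LM8 and PBS mice, with adjusted p of 1.55e-06, 0.000272 and 0.00211 by edgeR (quasi-likelihood fit). Of its rise with IL-33, 19.1 ± 6.74% remained in IL-33+LM8 mice. *Cdca3* (ENSMUSG00000023505, chromosome 6) was at 1.60, 0.896 and 0.931 FPKM in PBS mice 1, 2 and 3, at 11.0, 9.08 and 10.9 FPKM in IL-33 mice and at 3.44, 4.81 and 4.69 FPKM in IL-33+LM8 mice. *Cdca3* encodes a trigger of mitotic entry that is degraded in G1 phase. Its groups did not overlap, and PBS mouse 1 was the highest of the controls. For *Cdca3* the log2 fold change was 3.16 ± 0.25 (standard error) in IL-33 against PBS mice, -1.26 ± 0.15 between IL-33+LM8 and IL-33 mice and 1.91 ± 0.27 between IL-33+LM8 and PBS mice, with adjusted p of 4.71e-05, 0.00103 and 0.00249 by edgeR (quasi-likelihood fit). *Ube2c*, the ubiquitin-conjugating enzyme of the anaphase-promoting complex, had log2 fold changes of 3.06, -1.23 and 1.85.

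Spindle motors and microtubule proteins, 6 genes, rose with IL-33, fell with LM8 and remained higher than in PBS mice without exception in the fit of all mice. Medians were 2.82, -1.17 and 1.74, and the summed level was 6.40 ± 1.52 FPKM in PBS, 46.0 ± 3.22 FPKM in IL-33 and 20.3 ± 2.74 FPKM in IL-33+LM8 mice (SD, n = 3 each). *Tpx2* (ENSMUSG00000027469, chromosome 2) was at 2.16, 1.38 and 1.48 FPKM in PBS mice 1, 2 and 3, at 12.9, 11.2 and 12.2 FPKM in IL-33 mice and at 4.53, 5.96 and 5.47 FPKM in IL-33+LM8 mice. TPX2 activates Aurora A on the spindle. No groups overlapped. For *Tpx2* the log2 fold change was 2.85 ± 0.18 (standard error) in IL-33 against PBS mice, -1.19 ± 0.11 between IL-33+LM8 and IL-33 mice and 1.68 ± 0.20 between IL-33+LM8 and PBS mice, with adjusted p of 1.72e-05, 0.000419 and 0.00127 by edgeR (quasi-likelihood fit). *Hmmr* (ENSMUSG00000020330, chromosome 11) was at 0.711, 0.306 and 0.502 FPKM in PBS mice 1, 2 and 3, at 5.51, 5.02 and 5.88 FPKM in IL-33 mice and at 1.89, 2.23 and 1.88 FPKM in IL-33+LM8 mice. PBS values of *Hmmr* were low and spread widely, from 109 to 252 counts, and its fold was 10.8 ± 4.41. For *Hmmr* the log2 fold change was 3.42 ± 0.29 (standard error) in IL-33 against PBS mice, -1.45 ± 0.11 between IL-33+LM8 and IL-33 mice and 1.99 ± 0.30 between IL-33+LM8 and PBS mice, with adjusted p of 6.31e-05, 0.000192 and 0.00293 by edgeR (quasi-likelihood fit). The motor genes *Kif11* (spindle bipolarity), *Kif4* (chromosome arms and midzone) and *Kif2c* (microtubule depolymerization) had log2 fold changes of 2.80, 2.33 and 3.08 with IL-33. Between IL-33+LM8 and IL-33 mice these were -1.02, -1.32 and -1.13, and between IL-33+LM8 and PBS mice 1.80, 1.03 and 1.96. *Nusap1*, a microtubule-bundling protein gene, had 2.80, -1.15 and 1.67.

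Central spindle and cytokinesis genes act last, when the midzone forms and the cell cleaves. All 6 rose with IL-33 and all 6 fell with LM8, but 2 of the 6, *Kif20a* and *Racgap1*, were called higher in IL-33+LM8 than in PBS mice. At an adjusted p under 0.05 alone by edgeR, 5 of the 6 were higher there. Medians were 2.55, -1.54 and 0.93. The summed level was 7.89 ± 1.88 FPKM in PBS, 45.9 ± 4.14 FPKM in IL-33 and 16.8 ± 1.58 FPKM in IL-33+LM8 mice (SD, n = 3 each). *Kif20a* (ENSMUSG00000003779, chromosome 18) was at 1.57, 1.11 and 1.12 FPKM in PBS mice 1, 2 and 3, at 10.7, 9.46 and 10.8 FPKM in IL-33 mice and at 3.32, 4.64 and 3.70 FPKM in IL-33+LM8 mice. This kinesin brings passenger proteins and Plk1 to the midzone. It had the highest mean of the role in IL-33 mice, and *Racgap1* had it in the other groups. Every IL-33 mouse exceeded every IL-33+LM8 mouse, and these exceeded the controls. For *Kif20a* the log2 fold change was 3.01 ± 0.16 (standard error) in IL-33 against PBS mice, -1.41 ± 0.13 between IL-33+LM8 and IL-33 mice and 1.62 ± 0.20 between IL-33+LM8 and PBS mice, with adjusted p of 8.05e-06, 0.000419 and 0.00137 by edgeR (quasi-likelihood fit). *Racgap1* and *Kif23*, the centralspindlin pair, had log2 fold changes of 2.54 and 2.10 with IL-33, -1.14 and -1.21 with LM8 added, and 1.42 and 0.90 between IL-33+LM8 and PBS mice. *Prc1*, which bundles midzone microtubules, had 2.63, -1.68 and 0.96, and *Ect2* had 2.55, -1.73 and 0.84. *Anln*, the contractile ring protein anillin, was at 1.46, 0.806 and 1.12 FPKM in PBS, 4.68, 4.37 and 4.93 FPKM in IL-33 and 1.19, 1.61 and 1.54 FPKM in IL-33+LM8 mice. PBS mouse 1 lay above IL-33+LM8 mouse 1, so these groups overlapped. PBS mouse 1 bore on the calls of this role. Without it, *Kif23*, *Prc1* and *Ect2* were called higher in IL-33+LM8 than in PBS mice, at 1.15, 1.24 and 1.03, as was *Foxm1* at 1.05.

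The transcription and chromatin genes comprised *Mki67*, the Ki-67 proliferation antigen that coats mitotic chromosomes, *Top2a*, the topoisomerase that untangles sister chromatids, *Foxm1*, a transcription factor of mitotic genes, and *Hmgb2*, a DNA-bending protein gene. All 4 rose with IL-33, 3 fell with LM8 and 3 were higher in IL-33+LM8 than in PBS mice, with medians of 2.68, -1.29 and 1.64. Summed levels were 25.3 ± 2.60 FPKM in PBS, 138 ± 12.0 FPKM in IL-33 and 73.7 ± 8.10 FPKM in IL-33+LM8 mice (SD, n = 3 each). *Hmgb2* (ENSMUSG00000054717, chromosome 8) was at 18.1, 17.0 and 17.0 FPKM in PBS mice 1, 2 and 3, at 81.7, 68.7 and 77.9 FPKM in IL-33 mice and at 43.3, 55.4 and 48.6 FPKM in IL-33+LM8 mice. It was the most abundant member in every group and had the smallest difference between IL-33+LM8 and IL-33 mice. For *Hmgb2* the log2 fold change was 2.13 ± 0.07 (standard error) in IL-33 against PBS mice, -0.63 ± 0.11 between IL-33+LM8 and IL-33 mice and 1.51 ± 0.10 between IL-33+LM8 and PBS mice, with adjusted p of 1.65e-06, 0.00439 and 0.000102 by edgeR (quasi-likelihood fit). *Mki67* (ENSMUSG00000031004, chromosome 7) was at 4.58, 2.50 and 3.52 FPKM in PBS mice 1, 2 and 3, at 32.6, 28.6 and 30.9 FPKM in IL-33 mice and at 10.9, 11.8 and 12.9 FPKM in IL-33+LM8 mice. All 9 values kept the order of the groups. For *Mki67* the log2 fold change was 3.11 ± 0.21 (standard error) in IL-33 against PBS mice, -1.37 ± 0.08 between IL-33+LM8 and IL-33 mice and 1.76 ± 0.21 between IL-33+LM8 and PBS mice, with adjusted p of 2.35e-05, 7.81e-05 and 0.00112 by edgeR (quasi-likelihood fit). Mean FPKM in IL-33 mice was 8.69 ± 2.62 times that in PBS mice for *Mki67* and 4.38 ± 0.420 times for *Hmgb2*. *Top2a* had log2 fold changes of 3.05, -1.21 and 1.85, and *Foxm1* had 2.32, -1.50 and 0.84.

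**Figure D2:**
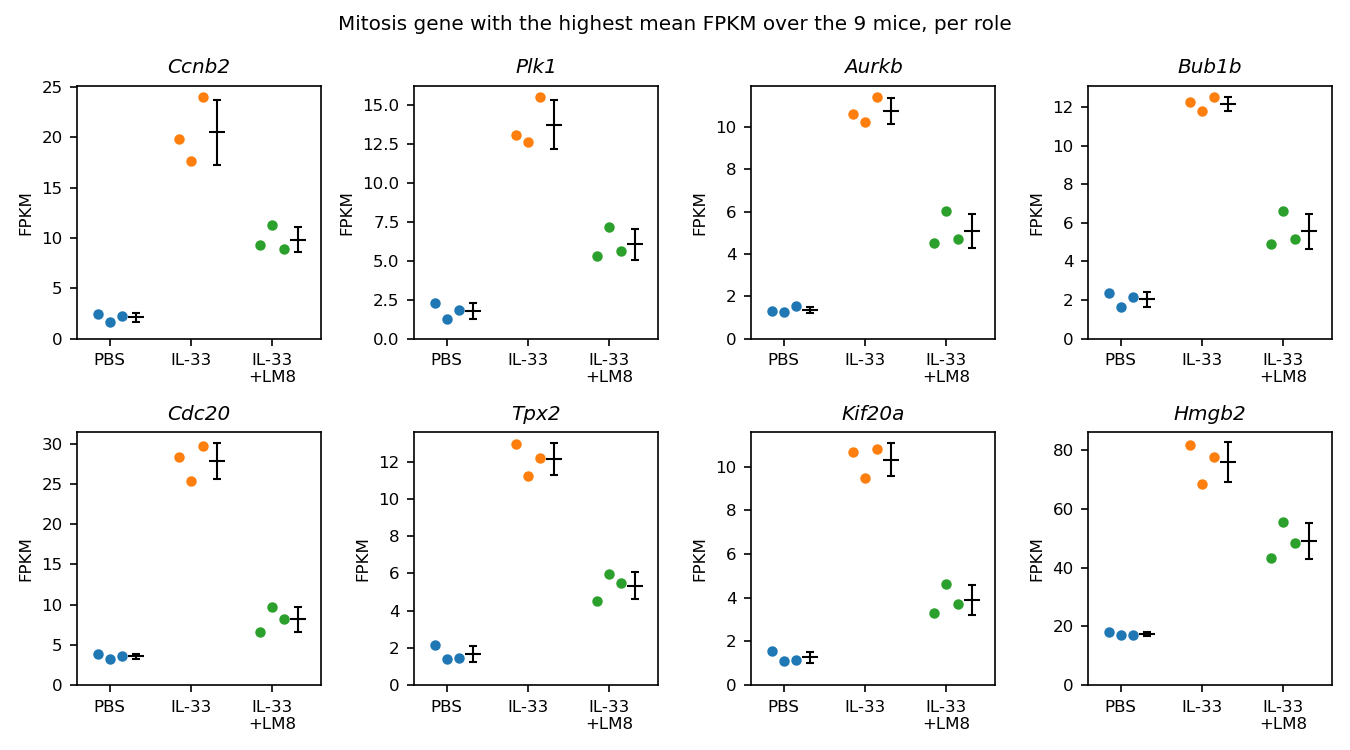
FPKM (y axis, from 0) of the mitosis gene with the highest mean over the 9 mice in each role, in every mouse (x axis, 3 mice per group). Points are single mice and bars the group mean with its SD; in all panels IL-33 mice are highest and IL-33+LM8 mice lie between them and PBS mice.

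Members tended to move together from mouse to mouse. Summed over the 40 members, expression was 80.6, 61.1 and 69.7 FPKM in PBS mice 1, 2 and 3, 471, 407 and 479.5 FPKM in IL-33 mice and 179, 232 and 204 FPKM in IL-33+LM8 mice. Group means were 70.4 ± 9.75, 453 ± 39.5 and 205 ± 26.5 FPKM (SD, n = 3 each). *Hmgb2* made up a large part of these sums. Without it the means were 53.1 ± 9.14, 377 ± 33.4 and 156 ± 20.4 FPKM, in the same order. The spread within a group was shared by most members. PBS mouse 1 was the highest of its group in 35 members and PBS mouse 2 the lowest in 30. IL-33 mouse 2 was the lowest of its group in 39 members, while IL-33 mice 1 and 3 were the highest in 19 and 21. IL-33+LM8 mouse 2 was the highest in 32 members and mouse 1 the lowest in 33. Members of 1 lung are therefore not independent measurements of it.

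Other cell cycle genes, outside the 40, were examined in lists of related function. By the call rule, 10.8% of all genes tested were higher and 6.24% lower with IL-33. Between IL-33+LM8 and IL-33 mice 1.46% were higher and 3.93% lower. Between IL-33+LM8 and PBS mice 5.87% were higher and 1.46% lower. These shares are the background for the calls in the cell cycle and marker lists that follow. Among all genes tested, an adjusted p under 0.05 by edgeR, whatever the fold, was reached by 4616 higher and 4577 lower of 16831 with IL-33, 2120 higher and 2339 lower of 16831 between IL-33+LM8 and IL-33 mice, and 2741 higher and 2256 lower of 16829 between IL-33+LM8 and PBS mice. Among 39 tested genes of other kinetochore, spindle and cytokinesis proteins, 35 rose with IL-33 with a median log2 fold change of 2.61, led by *Dlgap5* (3.27), *Cep55* (3.14) and *Cenpm* (3.08). *Dlgap5* encodes a spindle assembly protein, *Cep55* an abscission protein and *Cenpm* a centromere protein. With LM8 added, 31 of the 39 fell (median -1.15), led by *Iqgap3* (-2.08), *Pbk* (-1.81) and *Knl1* (-1.74). Against PBS mice, 31 were higher in IL-33+LM8 mice (median 1.37), led by *Ska1* (2.17), *Dlgap5* (2.12) and *Trip13* (1.90). Genes of this list with an adjusted p under 0.05, whatever the fold, by edgeR numbered 37 higher and 1 lower with IL-33, 1 higher and 35 lower between IL-33+LM8 and IL-33 mice, and 35 higher and 0 lower between IL-33+LM8 and PBS mice. The other gene of it, *Cenpw*, did not pass the expression filter. Singled out after their values were seen, *Zwint* (a kinetochore protein gene) and *Pttg1* (securin) were not called in IL-33 against PBS mice, and neither were *Kif18a* and *Bub3*. *Zwint* (log2 fold change -0.17, adjusted p 0.251 by edgeR) overlapped between groups. *Pttg1* (-0.63, adjusted p 0.000611 by edgeR) was lower in each IL-33 mouse than in each PBS mouse, by less than 2-fold. *Kif18a* (0.95, adjusted p 0.000569) and *Bub3* (0.41, adjusted p 0.00036) were higher in each IL-33 mouse than in each PBS mouse, by less than 2-fold (edgeR).

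Condensin genes, which compact chromosomes, were called higher with IL-33 in 6 of 8 cases, led by *Ncapg2* (3.12), *Ncapg* (3.07) and *Ncapd2* (2.27). With LM8, 1 of the 8 fell (*Ncapg*, -1.10), and 3 were higher in IL-33+LM8 than in PBS mice, *Ncapg2* (2.48), *Ncapg* (1.99) and *Ncapd2*. *Ncapg2* varied among IL-33+LM8 mice, at 1.59, 8.94 and 5.15 FPKM, and its standard error was 0.54. Condensin genes with an adjusted p under 0.05, whatever the fold, by edgeR numbered 8 higher and 0 lower with IL-33, 0 higher and 6 lower between IL-33+LM8 and IL-33 mice, and 7 higher and 0 lower between IL-33+LM8 and PBS mice. Of 17 genes of the anaphase-promoting complex (subunits, activator and inhibitor), 1 rose with IL-33 (*Fbxo5*, the Emi1 inhibitor, 1.74), and the list's median was 0.02. No gene of this list was called in either comparison of IL-33+LM8 mice by edgeR. Genes of the complex with an adjusted p under 0.05, whatever the fold, by edgeR numbered 5 higher and 3 lower with IL-33, 1 higher and 2 lower between IL-33+LM8 and IL-33 mice, and 3 higher and 1 lower between IL-33+LM8 and PBS mice. The mitotic entry switch rose in 5 of 8 genes with IL-33, led by *Cdc25c* (3.25), *Mastl* (1.87) and *Bora* (1.56). With LM8, 2 of them fell, *Mastl* (-1.15) and *Cdc25c* (-1.05), and 1 was higher in IL-33+LM8 than in PBS mice (*Cdc25c*, 2.23). Switch genes with an adjusted p under 0.05, whatever the fold, by edgeR numbered 7 higher and 1 lower with IL-33, 0 higher and 5 lower between IL-33+LM8 and IL-33 mice, and 4 higher and 0 lower between IL-33+LM8 and PBS mice.

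Cell cycle transcription factors rose in 6 of 14 cases with IL-33, led by *E2f8* (2.78), *E2f7* (2.17) and *Mybl2* (1.93). *Mybl2* encodes B-Myb, the activator that acts with the MuvB complex on mitotic genes, and *E2f7* and *E2f8* encode repressors of the E2F family. Among the 14, 1 fell with LM8 (*E2f7*, -1.45) and 2 were higher in IL-33+LM8 than in PBS mice, *E2f8* (1.85) and *Mybl2* (1.28). Transcription factors with an adjusted p under 0.05, whatever the fold, by edgeR numbered 11 higher and 1 lower with IL-33, 1 higher and 9 lower between IL-33+LM8 and IL-33 mice, and 4 higher and 0 lower between IL-33+LM8 and PBS mice. Of 8 G1 cyclins and kinases, 2 rose with IL-33, *Ccne1* (2.95) and *Ccne2* (1.45), which encode the E-type cyclins of S phase entry. *Ccne1* fell with LM8, at the 2-fold minimum, and remained higher than in PBS mice (1.96). G1 genes with an adjusted p under 0.05, whatever the fold, by edgeR numbered 5 higher and 1 lower with IL-33, 0 higher and 5 lower between IL-33+LM8 and IL-33 mice, and 3 higher and 2 lower between IL-33+LM8 and PBS mice. Among 7 CDK inhibitors none rose with IL-33 by the call rule, 1 fell (*Cdkn1c*, p57, -1.39), and none was called in the comparisons of IL-33+LM8 mice. CDK inhibitors with an adjusted p under 0.05, whatever the fold, by edgeR numbered 2 higher and 3 lower with IL-33, 2 higher and 1 lower between IL-33+LM8 and IL-33 mice, and 1 higher and 0 lower between IL-33+LM8 and PBS mice. All 13 DNA replication genes, which act in S phase, rose with IL-33 (median 2.05), led by *Rrm2* (2.96), *Cdc6* (2.53) and *Cdt1* (2.36). Of these, 2 fell with LM8, *Rrm2* (-1.24) and *Cdt1* (-1.04), where the median of the list was -0.74. In IL-33+LM8 against PBS mice 9 of the 13 were higher, led by *Cdc6* (1.79), *Rrm2* (1.74) and *Mcm5* (1.63). Replication genes with an adjusted p under 0.05, whatever the fold, by edgeR numbered 13 higher and 0 lower with IL-33, 0 higher and 13 lower between IL-33+LM8 and IL-33 mice, and 12 higher and 0 lower between IL-33+LM8 and PBS mice. Whether mitosis and replication genes differed in their response to LM8 was not tested.

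Markers of cell types in the lung also differed between the groups, some in the direction of the mitosis genes and some not. Their part in the result was not tested. Each list held 5 genes. Eosinophil markers, summed, stood at 1.03, 0.865 and 1.51 FPKM in PBS, 92.3, 91.4 and 96.9 FPKM in IL-33 and 22.4, 24.4 and 21.7 FPKM in IL-33+LM8 mice. Their most abundant gene was *Alox15*, and *Epx*, the eosinophil peroxidase gene, was at 0 in all PBS mice. All 4 tested rose with IL-33, all 4 fell with LM8 and 3 were higher in IL-33+LM8 than in PBS mice. Neutrophil markers, summed, stood at 25.7, 26.3 and 21.4 FPKM in PBS, 79.0, 102 and 81.2 FPKM in IL-33 and 780.0, 667 and 676 FPKM in IL-33+LM8 mice. All 5 rose with IL-33, and 4 rose further with LM8, among them the most abundant, *S100a9* (3.41). This further rise was in the opposite direction to the mitosis genes. Of all 16831 genes tested, 245 (1.46%) were called higher in IL-33+LM8 than in IL-33 mice. Granulocyte precursor markers, summed, stood at 0.181, 0.317 and 0.460 FPKM in PBS, 0.341, 1.14 and 0.602 FPKM in IL-33 and 1.23, 1.75 and 1.95 FPKM in IL-33+LM8 mice. *Mpo*, *Elane*, *Ctsg* and *Fcnb* were at 0 in all PBS mice, and *Prtn3*, the most abundant, was the gene tested. It was called higher in IL-33+LM8 than in PBS mice and in neither other comparison. Markers of ILC2 and Th2 cells, summed, stood at 6.91, 7.06 and 7.70 FPKM in PBS, 69.5, 61.3 and 75.8 FPKM in IL-33 and 28.1, 27.7 and 30.4 FPKM in IL-33+LM8 mice. All 5 rose with IL-33, 3 fell with LM8 and 4 were higher in IL-33+LM8 than in PBS mice. *Il17rb*, an IL-25 receptor gene, was the most abundant in IL-33 mice, *Gata3* in PBS and *Klrg1* in IL-33+LM8 mice. B and plasma cell markers, summed, stood at 43.0, 45.4 and 41.1 FPKM in PBS, 157, 174 and 144 FPKM in IL-33 and 72.0, 69.4 and 64.5 FPKM in IL-33+LM8 mice. All 5 rose with IL-33, 2 fell with LM8 and 2 were higher in IL-33+LM8 than in PBS mice. *Jchain*, the joining chain of secreted antibodies, was the most abundant in PBS and IL-33 mice and *Cd79a* in IL-33+LM8 mice. T cell markers, summed, stood at 26.3, 30.0 and 25.9 FPKM in PBS, 49.2, 43.5 and 56.0 FPKM in IL-33 and 44.6, 41.1 and 39.3 FPKM in IL-33+LM8 mice. Of these 1 rose with IL-33, *Trbc2*, the most abundant, and none was called with LM8. At an adjusted p under 0.05 alone by edgeR, 4 were higher and 0 lower with IL-33. By that rule 1 was lower in IL-33+LM8 than in IL-33 mice and 2 higher than in PBS mice.

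Macrophage and tissue lists moved as well. Markers of monocytes and interstitial macrophages, summed, stood at 60.2, 67.1 and 58.0 FPKM in PBS, 405, 409.5 and 383 FPKM in IL-33 and 173, 182 and 171 FPKM in IL-33+LM8 mice. Of the 5, 4 rose with IL-33, 3 fell with LM8 and 4 were higher in IL-33+LM8 than in PBS mice, and *C1qb* was the most abundant in IL-33 and IL-33+LM8 mice and *C1qa* in PBS mice. Alveolar macrophage markers, summed, stood at 116, 127 and 115 FPKM in PBS, 585, 634 and 582 FPKM in IL-33 and 183, 242 and 209 FPKM in IL-33+LM8 mice. *Ear2*, which eosinophils also express, made up most of this sum. With IL-33 2 genes rose (*Ear2*, *Pparg*) and 2 fell (*Marco*, *Krt79*), with LM8 2 rose and 1 fell, and 1 was higher in IL-33+LM8 than in PBS mice. Erythroid markers, summed, stood at 2046, 1692 and 1680 FPKM in PBS, 572, 586 and 738 FPKM in IL-33 and 2645, 2393 and 2355 FPKM in IL-33+LM8 mice. *Hba-a1*, a globin gene, made up nearly all of it. Of 3 tested, 2 fell with IL-33, all 3 rose with LM8 and 1 was higher in IL-33+LM8 than in PBS mice. Epithelial markers, summed, stood at 33960, 34560 and 31790 FPKM in PBS, 13610, 14810 and 14490 FPKM in IL-33 and 26530, 28460 and 26230 FPKM in IL-33+LM8 mice. Led by *Scgb1a1*, 2 of the 5 fell with IL-33 and none was called in the other comparisons. At an adjusted p under 0.05 alone by edgeR, 1 was higher (*Epcam*, 0.27) and 3 lower with IL-33. By that rule 3 were higher in IL-33+LM8 than in IL-33 mice and 1 lower than in PBS mice. Endothelial markers, summed, stood at 638, 622 and 701 FPKM in PBS, 399, 379 and 415 FPKM in IL-33 and 592, 586 and 605 FPKM in IL-33+LM8 mice. Here 3 of the 5 fell with IL-33 and none was called in the other comparisons. At an adjusted p under 0.05 without the 2-fold minimum by edgeR, 0 were higher and 4 lower with IL-33. By that rule all 5 were higher than in IL-33 mice and 3 lower than in PBS mice in the IL-33+LM8 group. *Cldn5* was the most abundant in IL-33 and IL-33+LM8 mice and *Cdh5* in PBS mice. Markers of fibroblasts and smooth muscle, summed, stood at 242, 237 and 229 FPKM in PBS, 372, 399 and 374 FPKM in IL-33 and 315, 347 and 322 FPKM in IL-33+LM8 mice. With IL-33 1 rose (*Col1a1*) and 1 fell (*Pdgfra*), with LM8 1 fell and none rose, and 1 was higher in IL-33+LM8 than in PBS mice (*Acta2*, the most abundant). No marker in these lists was at 0 in all 9 mice.

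Several marker lists held genes that differed by less than 2-fold. Neutrophil markers with an adjusted p under 0.05, whatever the fold, by edgeR numbered 5 higher and 0 lower with IL-33, 5 higher and 0 lower between IL-33+LM8 and IL-33 mice, and 5 higher and 0 lower between IL-33+LM8 and PBS mice. ILC2 and Th2 markers with an adjusted p under 0.05, whatever the fold, by edgeR numbered 5 higher and 0 lower with IL-33, 0 higher and 4 lower between IL-33+LM8 and IL-33 mice, and 4 higher and 0 lower between IL-33+LM8 and PBS mice. B and plasma cell markers with an adjusted p under 0.05, whatever the fold, by edgeR numbered 5 higher and 0 lower with IL-33, 0 higher and 5 lower between IL-33+LM8 and IL-33 mice, and 3 higher and 0 lower between IL-33+LM8 and PBS mice. Monocyte and interstitial macrophage markers with an adjusted p under 0.05, whatever the fold, by edgeR numbered 5 higher and 0 lower with IL-33, 1 higher and 4 lower between IL-33+LM8 and IL-33 mice, and 4 higher and 0 lower between IL-33+LM8 and PBS mice. Alveolar macrophage markers with an adjusted p under 0.05, whatever the fold, by edgeR numbered 3 higher and 2 lower with IL-33, 3 higher and 2 lower between IL-33+LM8 and IL-33 mice, and 3 higher and 0 lower between IL-33+LM8 and PBS mice. Erythroid markers with an adjusted p under 0.05, whatever the fold, by edgeR numbered 0 higher and 2 lower with IL-33, 3 higher and 0 lower between IL-33+LM8 and IL-33 mice, and 3 higher and 0 lower between IL-33+LM8 and PBS mice. Fibroblast and smooth muscle markers with an adjusted p under 0.05, whatever the fold, by edgeR numbered 3 higher and 2 lower with IL-33, 3 higher and 1 lower between IL-33+LM8 and IL-33 mice, and 2 higher and 1 lower between IL-33+LM8 and PBS mice. Eosinophil and granulocyte precursor markers gave the same counts with and without the 2-fold minimum.

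Promoters of mitosis genes were read to show what sequence the members share. Mitotic promoters are known for CCAAT boxes, bound by NF-Y, and for the cell cycle genes homology region, bound by MuvB complexes. In the 250 bases before each RefSeq gene start (GRCm38.p6), CCAAT and its reverse complement ATTGG were searched, and for the homology region TTTGAA, its reverse complement TTCAAA, and TTTAAA. Of the 40 members, 34 matched a promoter by symbol, with 2 promoters each for *Prc1* and *Ect2*, and *Ccna2*, *Aurkb*, *Kif20a*, *Tpx2*, *Spc24* and *Foxm1* had no entry. CCAAT letters were present in 28 of the members' 36 promoters (77.8%), homology region letters in 17 (47.2%) and both in 15 (41.7%, of 14 genes). Among the 14645 promoters of genes tested the shares were 34.7%, 18.4% and 6.57%, and among all 32851 promoters 33.8%, 25.2% and 8.78%. A match is a description of the letters and not of a bound site. Of the members with both kinds of match, the 5 with the highest mean FPKM in IL-33 mice are printed, 250 bases each, 5′ to 3′ toward the gene, with matches in capitals. No matches overlap. They are *Hmgb2* at chr8:57511593-57511842 on the plus strand, *Mki67* at chr7:135716380-135716629 on the minus strand, *Cdc20* at chr4:118437344-118437593 on the minus strand, *Top2a* at chr11:99024190-99024439 on the minus strand and *Ccnb2* at chr9:70421555-70421804 on the minus strand.
Hmgb2: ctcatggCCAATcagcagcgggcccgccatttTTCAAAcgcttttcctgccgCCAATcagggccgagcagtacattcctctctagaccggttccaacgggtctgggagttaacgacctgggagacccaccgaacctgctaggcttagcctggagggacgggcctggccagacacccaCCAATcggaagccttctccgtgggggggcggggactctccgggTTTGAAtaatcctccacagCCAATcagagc
Mki67: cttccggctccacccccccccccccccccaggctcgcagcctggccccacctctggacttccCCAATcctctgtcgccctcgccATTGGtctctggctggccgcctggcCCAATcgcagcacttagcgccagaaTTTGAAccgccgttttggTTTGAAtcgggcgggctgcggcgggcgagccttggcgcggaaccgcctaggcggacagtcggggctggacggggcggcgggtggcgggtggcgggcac
Cdc20: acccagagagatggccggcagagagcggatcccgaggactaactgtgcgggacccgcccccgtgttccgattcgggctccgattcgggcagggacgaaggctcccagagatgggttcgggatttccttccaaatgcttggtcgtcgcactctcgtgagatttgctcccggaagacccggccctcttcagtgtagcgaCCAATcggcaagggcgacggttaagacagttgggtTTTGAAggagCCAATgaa
Top2a: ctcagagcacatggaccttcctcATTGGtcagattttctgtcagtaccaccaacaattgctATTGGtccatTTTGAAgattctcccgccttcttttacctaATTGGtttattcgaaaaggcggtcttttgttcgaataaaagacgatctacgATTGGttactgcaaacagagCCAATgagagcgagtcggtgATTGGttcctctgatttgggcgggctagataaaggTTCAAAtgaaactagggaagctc
Ccnb2: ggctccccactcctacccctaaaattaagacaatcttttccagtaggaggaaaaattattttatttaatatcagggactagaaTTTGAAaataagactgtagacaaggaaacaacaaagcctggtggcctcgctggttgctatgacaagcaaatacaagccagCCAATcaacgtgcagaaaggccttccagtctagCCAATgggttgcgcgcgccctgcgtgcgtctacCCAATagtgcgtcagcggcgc
In *Cdc20* the TTTGAA letters began 18 bases before the start, between CCAAT letters that began 53 and 8 bases before it. *Hmgb2* held 4 CCAAT matches, the nearest beginning 11 bases before the start, and TTTGAA letters beginning 30 bases before it. In *Top2a* there were 6 CCAAT or ATTGG matches, and the TTCAAA letters nearest the start began 23 bases before it. *Ccnb2* held 3 CCAAT matches, beginning 87, 54 and 21 bases before the start, with TTTGAA letters farther out at 167. In *Mki67* the 2 TTTGAA matches, beginning 116 and 98 bases before the start, lay nearer to it than the CCAAT and ATTGG matches.

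**Figure D3:**
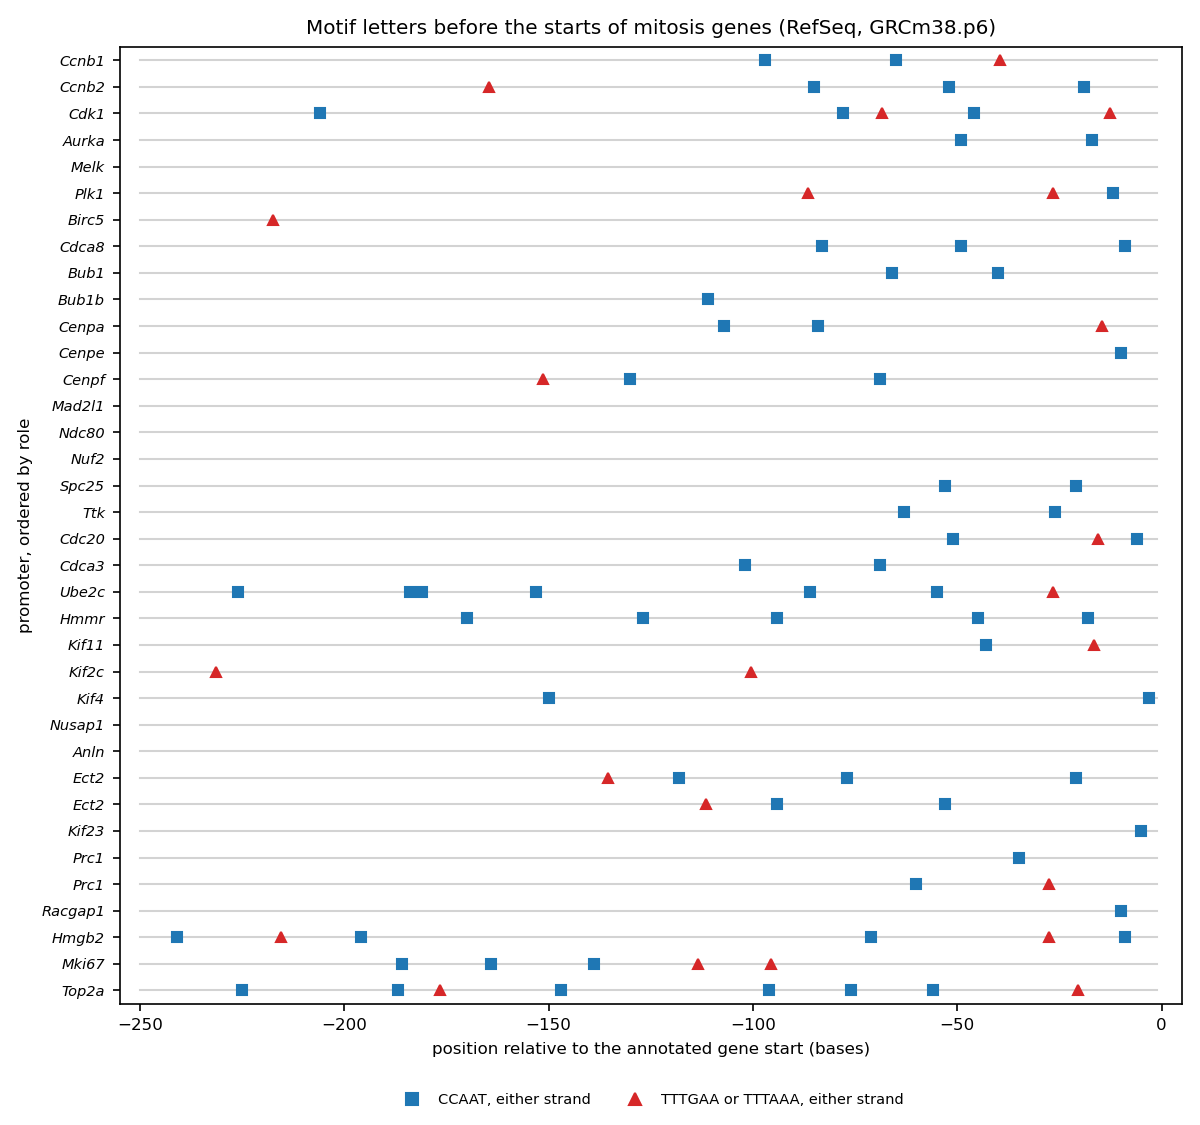
Position (x axis, bases relative to the annotated gene start) of CCAAT letters and of TTTGAA or TTTAAA letters, on either strand, in the 250 bases before the start for 36 promoters of 34 mitosis genes (y axis, by role). Both kinds occur in 15 promoters, and several promoters hold neither.

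Positions of the genes themselves are given by chromosome only. The submitters' processing notes name mm10, while 1 of the 40 members had the same start and end in the deposited table as in a GRCm38 annotation (GENCODE M21). The GRCm38.p6 promoters printed above also lie far from the positions that the table gives for the same genes. The table's coordinates are therefore not those of GRCm38, and which build they follow is not settled. The promoter coordinates above are those of RefSeq and are independent of the table.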

How the data were processed

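Lung RNA-seq of 9 mice was analysed, 3 per group, grouped by the treatment in the sample labels. The authors deposited 1 table with a raw read count and an FPKM value per gene and mouse. The deposited FPKM values were scaled by the authors to gene length and library size. The submitters' processing notes name HISAT2 2.0, StringTie 1.3.0, Bowtie 0.12.2 and mm10, without stating which step made the counts. The members and all lists were chosen with earlier results of these data known.

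Counts were tested with edgeR 4.0.16 (R 4.3.3; quasi-likelihood test, TMM normalization), fitted separately for each pair of groups. Genes averaging 0.5 FPKM or more across the 9 mice entered if any read was counted in the pair. Calls required p under 0.05 after Benjamini-Hochberg adjustment over every gene tested and a difference of 2-fold or more. Standard errors were obtained as log2 fold change over the square root of F. Fold multiples are ratios of mean FPKM with a propagated SD. Within each group no library was a copy of another, as the chi-square per gene of count differences was 24.5 or more.

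Per role, values in every mouse are given for the member with the highest mean FPKM over the 9 mice and the one with the largest log2 fold change in IL-33 against PBS mice. In the other comparisons, the 3 largest and 3 smallest changes among called members and every member not called are named. From 8 other cell cycle lists, up to 3 called genes per direction are named, and 12 marker lists of 5 genes are given by counts and levels. *Spc25*, *Anln* and, in IL-33+LM8 mice, *Ncapg2* were given per mouse after their values were seen. Alternatives were median-of-ratios factors, total count scaling, other FPKM filters, no minimum fold change, DESeq2 1.42.0, limma 3.58.1 on log2(FPKM + 1) and log2(FPKM + 0.1), 1 fit over the 9 mice, a replicate block and leave-one-out fits. A search of the proteins for the KEN tripeptide was foreseen and is not analysed here.

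Deviations of PBS and IL-33+LM8 mice with the same replicate number from their group means correlated over genes at 0.389, 0.428 and 0.732. For different numbers the correlations were -0.536 to 0.322. These values cannot decide whether the numbers pair the groups. The 0.732 is that of libraries that also deviated with IL-33 mouse 1, and the other values lie close to 0.322. No label states a shared litter or day. The fits behind the calls did not pair mice by number, and the numbers entered only in the replicate block alternative.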

Additional observations from a re-analysis of the deposited data

How the results depend on the processing

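In the 40 mitosis genes no direction reversed under any alternative in any comparison. Members called numbered 40 in IL-33 against PBS mice wherever all 40 were tested. Requiring a mean of at least 5 FPKM over the 9 mice left 14 members to test. Of these, 14, 13 and 14 were called in IL-33 against PBS, IL-33+LM8 against IL-33 and IL-33+LM8 against PBS mice. Of all genes, 1176, 304 and 469 were called, and fewer genes were tested there by construction. Apart from *Hmgb2*, the members left averaged under 5 FPKM in PBS mice and passed this filter through the other groups. Their calls under it are therefore not separate support. With limma on log2(FPKM + 1), 1741, 439 and 588 of all genes were called, 22 members in IL-33+LM8 against IL-33 and 19 in IL-33+LM8 against PBS mice, with member medians of 2.02, -1.03 and 0.99. The pseudocount understates changes of low genes on this scale. On log2(FPKM + 0.1), limma called 40, 36 and 31 members and 2773, 832 and 1122 genes, with medians of 2.75, -1.21 and 1.52. With no minimum fold change, 9193, 4459 and 4997 of all genes had an adjusted p under 0.05 by edgeR. Leaving out each mouse in turn gave 40 to 40, 31 to 39 and 30 to 36 members, 2729 to 2918, 780 to 963 and 1073 to 1297 genes, and member medians of 2.74 to 2.99, -1.32 to -1.12 and 1.50 to 1.84. With a replicate block, 40, 38 and 32 members and 2841, 836 and 1364 genes were called, with medians of 2.88, -1.23 and 1.66. The block added *Cdca8* (-1.02) and *Mad2l1* (-1.02) between IL-33+LM8 and IL-33 mice, where same-numbered mice correlated at -0.524, 0.311 and -0.553 and did not deviate together; for PBS and IL-33 mice the values were -0.527, 0.381 and -0.446. It changed no other member's call. Leaving aside the libraries that deviate together, chosen after seeing the data, *Ccnb1* (-0.92) and *Melk* (-1.06) lost the call between IL-33+LM8 and IL-33 mice, *Kif4* (0.92) lost it and *Cenpa* (1.04) gained it in IL-33+LM8 against PBS mice; fewer samples entered these fits. Over single members and alternatives, 614 values kept direction and call in IL-33 against PBS mice, 576 did between IL-33+LM8 and IL-33 mice, where 30 lost and 8 gained a call, and 587 did in IL-33+LM8 against PBS mice, where 19 lost and 8 gained one. Between IL-33+LM8 and IL-33 mice, *Ccnb1* lost its call without each of 4 mice and *Melk* without each of 3. The cause of these changes was not tested.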

Other observations

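Genes annotated to cell division in Gene Ontology but outside the lists above were looked at in addition, a set chosen after the values were seen and left after the listed cell cycle genes were taken out. Of 272 such genes, 262 were tested. In IL-33 against PBS mice 33 were called higher (12.6%, where all genes tested gave 10.8%) and 6 lower (2.29%, where all genes gave 6.24%), with a median log2 fold change of 0.11. The largest rises were those of *Cdca5* (3.26), which encodes sororin, a protector of sister chromatid cohesion, *Kntc1* (3.00), of the kinetochore RZZ complex, and *Cdca2* (2.99), a phosphatase-targeting protein gene. The lowest values were those of *Tppp* (-1.33), *Septin4* (-1.17) and *Fign* (-1.08), microtubule and septin genes with uses outside division. Between IL-33+LM8 and IL-33 mice 12 were called lower (4.58%, where all genes gave 3.93%) and 0 higher by edgeR, with a median of -0.06, and in IL-33+LM8 against PBS mice 15 were called higher (5.73%, where all genes gave 5.87%) and 0 lower, with a median of 0.06.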
